A study of Pantherophis guttatus with 6 samples.

Results

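The genes described here are 10 transcription factors that act in the neural crest and in melanophores, the melanin-bearing pigment cells of reptile skin: *MITF*, *SOX10*, *PAX3*, *TFAP2A*, *TFAP2B*, *FOXD3*, *SNAI2*, *ZEB2*, *SOX9* and *IRF4*. They were taken by symbol, and all 10 were found among the 25731 genes used from the count table. The libraries were made from dorsal skin that was taken from 6 embryos of the corn snake, *Pantherophis guttatus*, on embryonic day 40. The embryos were 3 homozygous hypomelanistic and 3 wild-type animals, and each library is a separate animal. The study describes them as clutch mates from a cross of heterozygous parents, at a stage when the skin already holds melanin. The hypomelanistic morph has little black pigment while its red and orange colours persist, and the comparison asks whether the factors that make and maintain melanophores differed between the genotypes. No embryo was treated, the labels give no sex, and the morph is a recessive trait of a breeding line and not an engineered deletion.

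Neural crest cells arise at the edge of the neural tube, leave it through an epithelial-to-mesenchymal transition and give rise to pigment cells, peripheral glia and other lineages. In mouse and human melanocytes, SOX10 and PAX3 activate *MITF*, and MITF then activates the genes that make melanin and build the melanosome, the organelle that holds it. The AP-2 factors act with MITF at many of these genes, FOXD3 holds crest cells back from the pigment fate in birds, and SNAI2 and ZEB2 drive the transition itself. Most of these factors also act outside pigment cells, for example AP-2 factors in keratinocytes, SOX9 in cartilage and SNAI2 in fibroblasts. In RNA from whole skin, fewer cells of a type and less RNA per cell cannot be told apart.

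Libraries held 29958657 to 38541392 counts, of which the 10 factors together took 0.0439% to 0.0522%. Ribosomal RNA (28 genes by annotation) made up 10.2% to 13.5% of the counts in hypomelanistic and 7.39% to 8.83% in wild-type libraries. On the first principal component of the 500 most variable genes (35.9% of their variance), hypomelanistic 1 scored -32.6 and the other 5 libraries between -1.58 and 11.2. The study names the sex of the embryos as the main difference between samples. Skin markers were abundant, with *COL17A1* and *DSP* of the epidermis at a mean of 611 and 324 TPM and *COL1A1* of the dermis at 17629 TPM. TPM, which divides counts by gene length and scales each library to the same total, is used below to compare genes within a library. CPM, which scales counts by library size and TMM factor, is used to compare libraries for a single gene.

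The factors covered a wide range of levels. *SNAI2* stood highest at 80.8 ± 8.99 TPM (mean ± SD, n = 6 embryos) and *IRF4* lowest at 0.0579 ± 0.0515 TPM. Between them came *TFAP2A* at 69.1 ± 7.69, *ZEB2* at 52.8 ± 6.69, *SOX10* at 27.7 ± 1.49, *SOX9* at 13.2 ± 1.61, *MITF* at 10.4 ± 1.396, *FOXD3* at 8.22 ± 1.21, *TFAP2B* at 4.90 ± 0.619 and *PAX3* at 1.26 ± 0.238 TPM. *SNAI2*, *ZEB2* and *TFAP2A*, which also act in fibroblasts or keratinocytes, lay above *SOX10*, *MITF* and *PAX3*. *SOX9* and *TFAP2B*, which likewise act outside pigment cells, lay below *SOX10*, and *TFAP2B* also below *MITF*. Which cells gave these levels was not tested. *SNAI2* exceeded 94.5% of the genes in the table, *SOX10* 83.8%, *MITF* 67.2% and *PAX3* 42.6%. The order was the same when it was taken in the 3 hypomelanistic or in the 3 wild-type embryos alone.

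**Figure D1:**
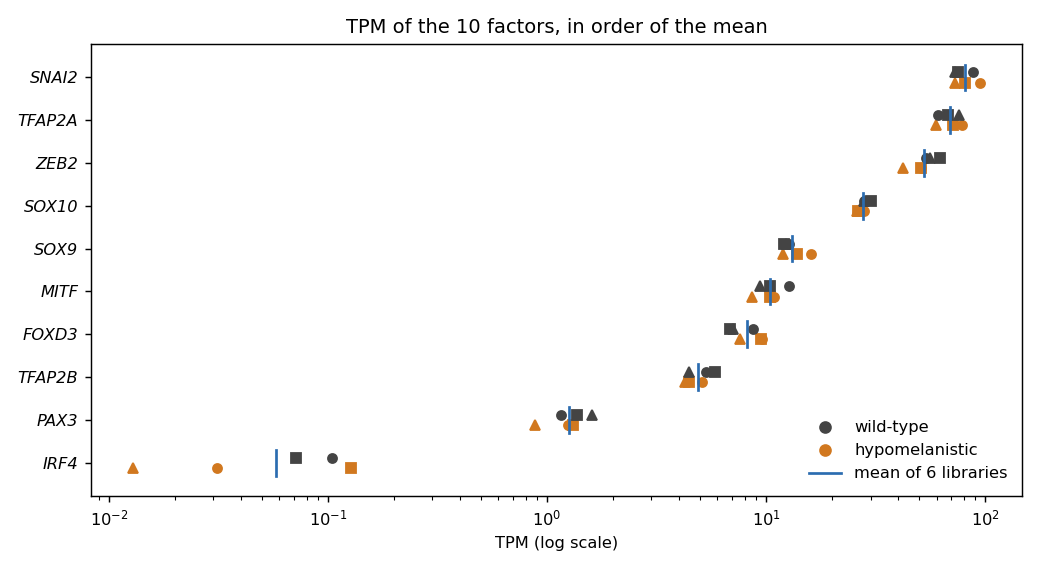
TPM of each factor on a log scale, with 1 marker per embryo (circle, square and triangle for replicates 1, 2 and 3, grey for wild-type and orange for hypomelanistic) and a blue line at the mean of the 6 libraries. *SNAI2* lies at the top and *PAX3* and *IRF4* at the bottom, and wild-type 3, with no *IRF4* count, has no marker in that row.

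Neighbours in this order were compared within each embryo with an exact two-sided permutation test over the 64 sign patterns, whose smallest p is 0.03125. Of 9 neighbouring pairs, 7 kept the same order in all 6 embryos (exact p = 0.03125, adjusted over the pairs 0.0402). The pairs and their direction came from the same TPM values, so these p-values do not test the ranking. Where all 6 embryos keep the same order, the test must give 0.03125. How steady the order was is therefore read from the number of embryos alone. *SNAI2* exceeded *TFAP2A* in 5 of 6 embryos, with a ratio of the means of 1.17 (exact p = 0.0625, adjusted 0.0625). *SOX9* exceeded *MITF* in 5 of 6 embryos, with a ratio of 1.26 (exact p = 0.0625, adjusted 0.0625). The order of these 2 pairs was thus less steady than that of the other 7. *TFAP2A* and *ZEB2*, and likewise *MITF* and *FOXD3*, kept their order within every embryo although their ranges over embryos overlapped. The largest steps were those from *TFAP2B* to *PAX3*, 3.88-fold, and from *PAX3* to *IRF4*, 21.8-fold. Without division by length, in CPM, *TFAP2A* ranked first, *ZEB2* second, *SNAI2*, a gene of only 2159 exonic bases, in place 3 and *SOX9* in place 7, below *MITF* and *TFAP2B*.

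Between genotypes, none of the factors passed the test. *IRF4* had too few counts for the edgeR filter, and of the other 9 factors 0 passed the edgeR quasi-likelihood test at an adjusted p of 0.05, with adjusted p from 0.828 to 0.955. DESeq2 and limma-voom also called 0 of them. *IRF4* had an adjusted p of 0.999 with DESeq2 and of 0.997 with edgeR without the filter. For comparison, edgeR called 0.0235% of the 17025 tested genes and DESeq2 0.428% of 19637. At an unadjusted p under 0.05 stood *ZEB2* and *SOX9*, 2 of 9 factors, against 5.63% of all tested genes, and the same 2 were the only ones whose genotypes did not overlap in CPM, against 12.2% of all tested genes. Of the 9, 4 had a positive and 5 a negative log2 fold change (hypomelanistic over wild-type), with a median of -0.03 beside 0.00 for all tested genes. When single libraries were left out, the number under an unadjusted p of 0.05 ranged from 0 (without hypomelanistic 1, wild-type 2 or wild-type 3) to 4 (without wild-type 1), and the median turned positive without hypomelanistic 3 (0.01) and without wild-type 1 (0.05). Their median absolute log2 fold change was 0.14 and that of all tested genes 0.11.

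**Figure D2:**
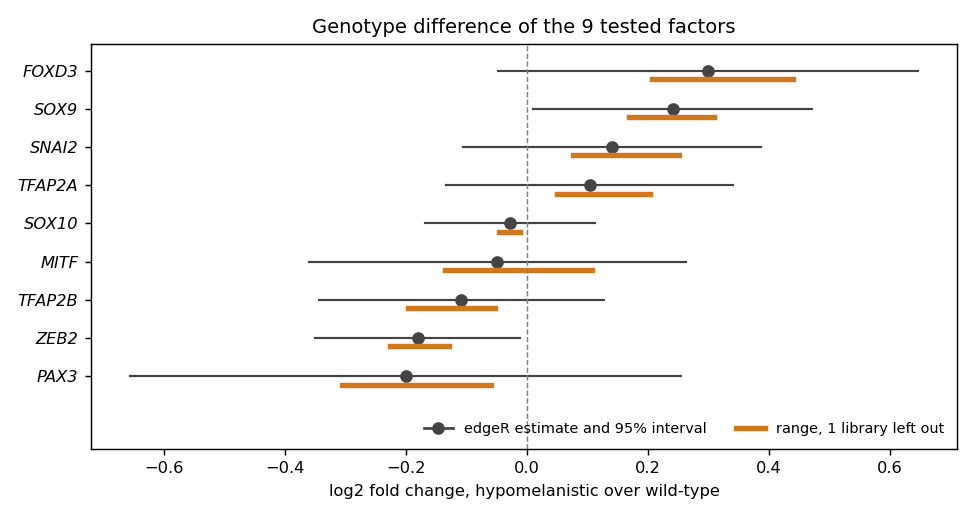
Log2 fold change of the 9 tested factors, hypomelanistic over wild-type: points and black lines are edgeR estimates with 95% intervals, and orange bars span the estimates when each of the 6 libraries is left out in turn. The intervals of *SOX9* and *ZEB2* lie to either side of 0, those of the other 7 factors include it, and the orange bar of *MITF* crosses it.

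*MITF*, the basic helix-loop-helix factor at the head of the melanocyte program, lies on scaffold NW_026844106.1 of the CU assembly from base 5328411 to 5519364 on the minus strand, a span of 191.0 kb with 13 exon blocks. Its level was 29.6, 29.8 and 26.2 CPM in hypomelanistic embryos 1, 2 and 3 and 35.6, 27.2 and 25.8 CPM in wild-type embryos 1, 2 and 3. The genotypes overlapped, with wild-type 1 above all others and wild-type 3 and hypomelanistic 3 lowest. The log2 fold change was -0.05 ± 0.133 (SE, edgeR adjusted p = 0.955), and its 95% interval corresponds to 0.779 to 1.199 times the wild-type level. It became 0.01 without hypomelanistic 3 and 0.11 without wild-type 1. Counts were summed over the gene, so transcripts from different *MITF* promoters, which are known in mouse and human, were not separated.

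*SOX10*, the SOXE factor of the crest, melanocytes and glia, lies on scaffold NW_026844064.1 from base 16979790 to 17004144 on the minus strand. Hypomelanistic embryos 1, 2 and 3 had 39.4, 38.7 and 40.6 CPM, and wild-type embryos 40.6, 40.6 and 39.9 CPM. All 6 embryos fell within a narrow band and the genotypes overlapped. The coefficient of variation over the 6 libraries was 1.94%, below the 2.72% that counting error alone gives at its 1232 to 1500 counts, and only 4.45% of the tested genes had a smaller fitted dispersion. The log2 fold change was -0.03 ± 0.0598 (edgeR adjusted p = 0.939), with a 95% interval of 0.889 to 1.081 times the wild-type level, the narrowest of the 9. With library totals in place of TMM factors, all 3 hypomelanistic embryos fell below the wild-type embryos, with a log2 fold change of -0.09 (edgeR adjusted p = 0.731). Library totals also moved the median log2 ratio of all tested genes to -0.06, from 0.00 with TMM. The share of all genes that separate with library totals was not computed.

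*PAX3*, a paired-box factor that acts with SOX10 on *MITF*, lies on scaffold NW_026844092.1 from base 36952542 to 37045136. It had 4.11, 4.53 and 3.25 CPM in the hypomelanistic and 3.95, 4.32 and 5.38 CPM in the wild-type embryos. Hypomelanistic 3 was lowest, wild-type 3 highest, and the rest overlapped. Its log2 fold change of -0.20 ± 0.194 had the widest interval of the 9, -0.66 to 0.26, at 120 to 180 counts per library (edgeR adjusted p = 0.865). Leaving out wild-type 3 moved it to -0.06, and leaving out hypomelanistic 3 to -0.07. Within each embryo, the ratio of *MITF* to *SOX10* in TPM was 0.334 to 0.399 in hypomelanistic and 0.335 to 0.454 in wild-type animals, and that of *PAX3* to *SOX10* was 0.0342 to 0.04996 and 0.0416 to 0.0576. Both ratios overlapped between genotypes.

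**Figure D3:**
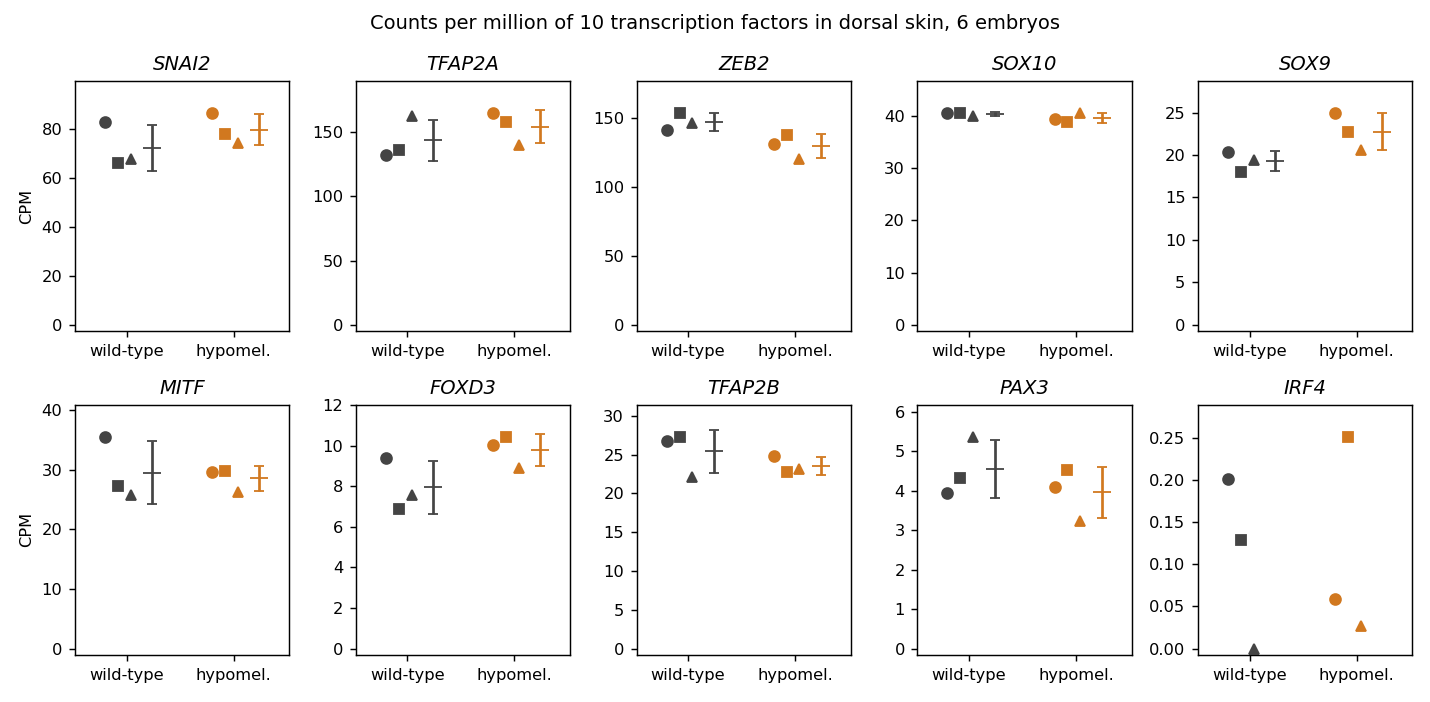
CPM of the 10 factors in each embryo, 1 panel per gene in order of TPM, with circle, square and triangle for replicates 1, 2 and 3 and a bar for the mean ± SD of 3 embryos (none for *IRF4*, which has 0 to 8 counts). Each panel has its own axis from 0. Only in *ZEB2* and *SOX9* do the grey and orange markers not overlap, and in *SOX9* the gap is narrow.

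*TFAP2A*, an AP-2 factor of crest, melanocytes and keratinocytes, lies on scaffold NW_026844077.1 from base 68285829 to 68313028. It had 165.0, 157.6 and 140.0 CPM in the hypomelanistic embryos and 132.5, 135.9 and 162.2 CPM in the wild-type embryos. Wild-type 3 sat among the higher hypomelanistic values, so the genotypes overlapped (log2 fold change 0.10 ± 0.101, edgeR adjusted p = 0.865). *TFAP2B*, its paralog on scaffold NW_026844025.1 (bases 58291504 to 58355842), had 24.9, 22.7 and 23.1 CPM in the hypomelanistic and 26.7, 27.3 and 22.2 CPM in the wild-type embryos. Here wild-type 3 was the lowest of all 6, and the log2 fold change was -0.11 ± 0.101 (edgeR adjusted p = 0.860). With single libraries left out it ranged from 0.05 to 0.20 for *TFAP2A* and from -0.20 to -0.05 for *TFAP2B*, with the values farthest from 0 both reached without wild-type 3. *TFAP2A* exceeded *TFAP2B* in TPM by a factor of 14.1 to 16.1 in hypomelanistic and 11.5 to 17.0 in wild-type embryos.

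*FOXD3*, a forkhead factor of early crest, is a gene with a single exon of 2473 bases on scaffold NW_026844027.1, from base 57658846 to 57661318. It had 10.02, 10.4 and 8.88 CPM in the hypomelanistic and 9.39, 6.87 and 7.56 CPM in the wild-type embryos. Wild-type 1 lay within the hypomelanistic range and the other wild-type embryos below it. The log2 fold change of 0.30 ± 0.148 was the largest of the 9 (95% interval -0.05 to 0.65, unadjusted p = 0.0811, edgeR adjusted p = 0.828). *FOXD3* shares 51 exonic bases with LOC132711215 on the other strand, a gene with 52 to 101 counts per library beside the 213 to 344 of *FOXD3*. Whether featureCounts used strand is not stated in the paper or labels, so reads from this stretch may not have been separated.

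*SNAI2*, also called Slug, is a zinc finger repressor of epithelial genes and lies on the scaffold of *TFAP2A*, from base 43303904 to 43307967. It had 86.6, 78.1 and 74.2 CPM in the hypomelanistic and 82.8, 65.9 and 67.9 CPM in the wild-type embryos. Wild-type 1 again lay among the hypomelanistic values, with the other wild-type embryos lowest (log2 fold change 0.14 ± 0.105, edgeR adjusted p = 0.830). The value was 0.25 without wild-type 1 and 0.08 without hypomelanistic 1 or without wild-type 2.

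*ZEB2*, a zinc finger and homeobox repressor that also maintains *Mitf* in mouse melanocytes, lies on scaffold NW_026844021.1 from base 102035225 to 102208197. It had 131.2, 138.0 and 120.5 CPM in the hypomelanistic and 141.5, 154.0 and 146.4 CPM in the wild-type embryos. All hypomelanistic values were below all wild-type values, a separation that 6.39% of the tested genes showed in this direction, and it held with TMM, with the size factors of DESeq2, with library totals and with ribosomal RNA genes left out. The level was 0.882 times that of wild-type (log2 fold change -0.18 ± 0.072, 95% interval -0.35 to -0.01). The unadjusted p of 0.0387 was rank 740 of the 17025 tested genes and did not pass adjustment (edgeR adjusted p = 0.828). The exact permutation test of the CPM values gave p = 0.1, the smallest that 3 against 3 embryos allow. Leaving out single libraries moved the log2 fold change between -0.23 and -0.13, and without hypomelanistic 1, the library apart on the first component, it was -0.19. A gene on the other strand, LOC117669918, overlaps 73 exonic bases of *ZEB2* but had only 7 to 11 counts, against 4389 to 4913 for *ZEB2*.

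*SOX9*, a SOXE factor of cartilage, dermis and crest that is also made in human melanocytes, lies on scaffold NW_026844023.1 from base 79500230 to 79526040. It had 24.96, 22.7 and 20.6 CPM in the hypomelanistic and 20.3, 18.03 and 19.4 CPM in the wild-type embryos. Hypomelanistic values were the higher ones (5.77% of tested genes separated this way), but hypomelanistic 3 and wild-type 1 were nearly equal, and with library totals in place of TMM the genotypes overlapped. The level was 1.18 times that of wild-type (log2 fold change 0.24 ± 0.0983, 95% interval 0.01 to 0.47, unadjusted p = 0.0430, rank 825). It did not pass adjustment (edgeR adjusted p = 0.828), and the exact permutation p was 0.1. The value was 0.17 without hypomelanistic 1 and 0.17 with the first principal component as a covariate. An overlap of 22 exonic bases with LOC117662951 involves a gene of 2 to 5 counts.

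In TPM, *ZEB2* exceeded *SOX9* 3.18- to 3.68-fold in hypomelanistic and 4.22- to 5.18-fold in wild-type embryos. These ratios did not overlap, but they could not have overlapped, since *ZEB2* was lower and *SOX9* higher without overlap in CPM. The ratio therefore adds nothing to those separations. The pair was chosen after its values were seen and gets no test. *SOX10* exceeded *SOX9* 1.74- to 2.18-fold in hypomelanistic and 2.20- to 2.49-fold in wild-type embryos, and this ratio was also chosen after its values were seen.

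*IRF4* acts with MITF on *TYR* in human melanocytes and is also a factor of lymphocytes. It lies 3.42 Mb from *TFAP2A* on the same scaffold, from base 71731481 to 71760767. It had 2, 8 and 1 counts in the hypomelanistic and 7, 4 and 0 counts in the wild-type embryos. Counts at or near 0 occurred in both genotypes, which overlapped. The 0 in wild-type 3 allows up to 0.0896 CPM (3 counts, counting error only), so a small difference in *IRF4* was not detectable at this depth. None of the 10 factors lies on the scaffold that carries *TYR*, the gene whose reduced expression the study proposes as the most likely basis of this morph.

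The factors differed in how steady they were between embryos. After *SOX10*, the lowest coefficients of variation of CPM over the 6 libraries were those of *ZEB2* at 8.47% and *TFAP2B* at 8.91%, and the highest among tested factors were 15.8% for *FOXD3* and 16.5% for *PAX3*. Counting error alone gives 8.37% for *PAX3* and 5.78% for *FOXD3*. *MITF* varied by 12.5%, against 3.20% from counting error, 7.20% within the hypomelanistic and 17.9% within the wild-type group.

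Over the 6 embryos, all 36 pairs of the 9 tested factors were correlated in log2 CPM, and 0 passed adjustment. The pairs with an unadjusted p under 0.05 were 3, all among *FOXD3*, *SNAI2* and *SOX9*. For *FOXD3* and *SOX9*, Pearson's r was 0.878 and Spearman's rho 0.886 (exact permutation p = 0.0222 and 0.0333, adjusted 0.433 and 0.525). Without the 2 libraries farthest from the median of the first-named gene, r was 0.725. For *FOXD3* and *SNAI2*, r was 0.893 and rho 0.829 (exact permutation p = 0.0250 and 0.0583, adjusted 0.433 and 0.525), and r fell to 0.445 without 2 libraries. For *SNAI2* and *SOX9*, r was 0.846 and rho 0.829 (exact permutation p = 0.0361 and 0.0583, adjusted 0.433 and 0.525), with 0.511 without 2 libraries. *MITF* and *SOX10* had an r of -0.04 and a rho of -0.09 (exact permutation p = 0.939 and 0.919, adjusted 0.939 and 0.946). Without the 2 libraries farthest from the *MITF* median r was -0.94, so r depended on the libraries used. *SOX10* varied by 1.94%, below its counting error of 2.72%, so neither value is read as a relation. The 6 points combine both genotypes, and r within a group of 3 was not computed.

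The genes most like *MITF* over the 6 libraries, among 17016 others, were *MOV10L1* (r = 0.989), a *PLCB3*-like gene, LOC117672323 (r = 0.987), and *EFEMP2* (r = 0.982). *EFEMP2*, which encodes an elastic fibre protein, had 131.8, 132.6 and 116.4 CPM in hypomelanistic and 154.9, 127.8 and 117.2 CPM in wild-type embryos, with the peak in wild-type 1 that *MITF* also had. In all, 17 genes exceeded an r of 0.95 with *MITF*. For *SOX10* the closest were *NHERF1* (r = 0.999), *INTS14* (r = 0.996) and LOC117669225 (r = 0.992), with 39 genes above 0.95. These genes were picked as the highest of 17016 over only 6 points, and the range of *SOX10* was narrow. The number of genes that would exceed 0.95 without any relation was not computed. The values for *MITF* and *SOX10* therefore only describe the profiles.

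Each factor was then set beside its relatives, since paralogs can share targets. Among AP-2 genes, *TFAP2C*, a factor of the epidermis and placenta in mammals, was highest at 91.2 TPM, followed by *TFAP2A* at 69.1, *TFAP2E* at 30.6 and *TFAP2B* at 4.90 TPM. *TFAP2E*, which acts with *tfap2a* in zebrafish melanophores, was thus above its better known paralog *TFAP2B*. *TFAP2D* had 0 or 1 counts in each library. In the SOXE group, *SOX10* made up 63.3% ± 2.73 of the summed TPM, *SOX9* 30.0% ± 2.73 and *SOX8* 6.68% ± 1.22 (SD, n = 6).

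*MITF* was not the most abundant gene of its family. *TFE3*, which binds the same DNA motif and acts in lysosome and energy control, made up 62.8% ± 3.55 of the family's TPM and *MITF* 28.5% ± 3.26, while *TFEB* and *TFEC* had 1.57 and 1.59 TPM. *TFE3* was 41.4 ± 1.54 CPM in hypomelanistic and 36.4 ± 3.44 CPM in wild-type embryos (n = 3 each). The groups separated only narrowly, with a lowest hypomelanistic value of 40.1 and a highest wild-type value of 39.9 CPM. Of all tested genes, 5.77% separated in this direction. In TPM the groups overlapped, with wild-type 2 at 25.2 and the hypomelanistic embryos at 24.9, 23.2 and 23.5. TPM carries no TMM factor and keeps ribosomal RNA in the total, so this overlap does not decide the separation in CPM. The log2 fold change was 0.19 ± 0.0855 (edgeR adjusted p = 0.828), and 0.12 without wild-type 3. *TFEC*, a factor of iridophores in zebrafish, rested on 17 to 42 counts.

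*SNAI2* took 66.9% ± 3.71 of the Snail family's TPM, above *SNAI1* with 39.0 TPM and *SNAI3* with 0.788 TPM. *ZEB2* took 66.9% ± 1.92 of the pair with *ZEB1*, and its share was alike in hypomelanistic (66.4%) and wild-type embryos (67.3%). *ZEB1* had a log2 fold change of -0.13 ± 0.103 (edgeR adjusted p = 0.835). *PAX3* at 1.26 and *PAX7* at 1.16 TPM were close to each other, and *PAX7* is also a marker of muscle progenitors. *FOXD3* at 8.22 TPM was below *FOXD2* at 33.7 TPM and above *FOXD1* at 4.32 TPM, both known from mesenchyme. *IRF1* at 5.54 and *IRF2* at 6.38 TPM exceeded *IRF4* and *IRF8*, which had 0.0579 and 0.208 TPM.

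**Figure D4:**
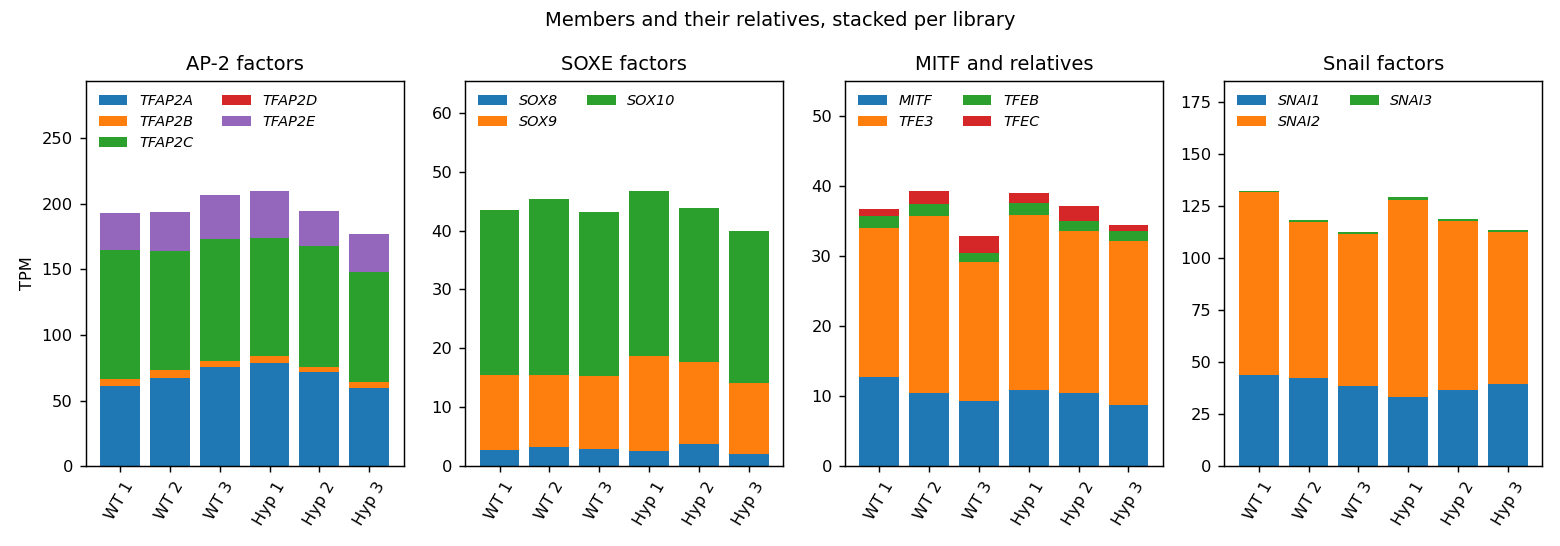
TPM of the AP-2, SOXE, MITF and Snail families stacked by member in each of the 6 libraries (WT wild-type, Hyp hypomelanistic), with 1 panel and 1 axis per family. *TFAP2C*, *SOX10*, *TFE3* and *SNAI2* form the largest part of their family in every library.

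The genes around the factors were taken from 9 lists with 127 measured genes, of which 114 had enough counts to be tested. Among 22 genes known as targets or partners of MITF and SOX10 in pigment cells, 19 were tested, 10 with a positive and 9 with a negative log2 fold change, with a median of 0.01. Only *TYR*, the rate-limiting enzyme of melanin synthesis, passed and fell, from 37.2 ± 4.65 to 4.97 ± 0.178 CPM (log2 fold change -2.90 ± 0.115, edgeR adjusted p = 0.000415), and DESeq2 called the same number. In this list, 3 of the 19 tested genes had an unadjusted p under 0.05, beside 5.63% of all tested genes. *RAB27A*, which carries melanosomes to the cell edge, had 7.63 ± 1.61 CPM in hypomelanistic and 4.44 ± 0.381 CPM in wild-type embryos without overlap. Of all tested genes, 5.77% separated in this direction. The log2 fold change of *RAB27A* was 0.78 ± 0.181 (edgeR adjusted p = 0.740), and its DESeq2 adjusted p of 0.0557 lay just above the threshold. *RAB38*, a small GTPase gene that the study counts among the key genes of melanin production, lies near *TYR*. *RAB38* differed by -0.37 ± 0.131 on the log2 scale without overlap (edgeR adjusted p = 0.828), a separation that 6.39% of all tested genes showed in this direction. The endothelin receptor gene *EDNRB* differed by -0.21 ± 0.130 (edgeR adjusted p = 0.828). It differed by -0.09 when wild-type 2 or -0.32 when hypomelanistic 1 was left out. Groups overlapped for the melanosome fibre gene *PMEL* (log2 fold change -0.02 ± 0.079) and for *TYRP1* (-0.14 ± 0.154) and *DCT* (-0.20 ± 0.148), enzymes of melanin synthesis. They also overlapped for *MLANA* (0.14 ± 0.0924), *SLC24A5* (0.13 ± 0.150), *SLC45A2* (0.12 ± 0.197) and *GPNMB* (0.35 ± 0.269), all with positive values. For *GPNMB*, hypomelanistic embryos spread from 143 to 327 CPM, to both sides of the wild-type range of 165 to 180 CPM. *MC1R*, *BCL2A1* and *ATP6V0D2* had too few counts. The summed level of the list was 2065 to 2272 CPM in hypomelanistic and 2080 to 2332 CPM in wild-type embryos. *PMEL* gave the largest part, at a mean of 1162 and 1178 CPM.

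Of 33 measured relatives and other crest factors, 31 were tested, 15 with a positive and 16 with a negative log2 fold change, and 0 passed with edgeR or DESeq2. Unadjusted p was under 0.05 for 2 of them, beside 5.63% of all tested genes. These were *HES1*, the Notch target that keeps melanocyte precursors in mouse, at 14.3 ± 4.29 against 9.61 ± 1.31 CPM (log2 fold change 0.57 ± 0.223), and *FOXD1* at 4.48 ± 0.711 against 3.23 ± 0.378 CPM (0.47 ± 0.183), both with an edgeR adjusted p of 0.828. *HES1* was 0.32 on the log2 scale without hypomelanistic 3. *DLX5*, a homeobox gene, differed by 0.27 ± 0.170 (edgeR adjusted p = 0.828), but by 0.03 without hypomelanistic 1 and 0.05 with the first principal component as a covariate. The median of the list was -0.00.

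Other skin cells use the same factors, so their markers were read beside them. For Schwann cells, which also depend on SOX10, 12 markers were measured and 11 tested, 5 with a positive and 6 with a negative log2 fold change and 0 passed. Their summed level was 702 to 772 CPM in hypomelanistic and 633 to 776 CPM in wild-type embryos. Most of it was *PMP22*, at a mean of 571 and 562 CPM, so the sum says little about the other markers. *EGR2*, which defines myelinating cells, had 0 or 1 counts. *FABP7* differed by -1.16 ± 0.446, *POU3F1* by 0.71 ± 0.298 and *ERBB3* by 0.24 ± 0.159 on the log2 scale. Of 12 keratinocyte markers tested, 7 were positive and 5 negative, 0 passed, and the sum was 4597 to 4873 against 4608 to 5060 CPM. *KRT5*, *KRT14* and *KRT15* were not matched by symbol and were not analysed here. *TP63* differed by 0.29 ± 0.108, *EVPL* by -0.18 ± 0.0747, *PKP3* by 0.14 ± 0.0667 and *CDH1* by 0.20 ± 0.129. Unadjusted p was under 0.05 for 2 genes of each of these 2 lists, beside 5.63% of all tested genes, and DESeq2 called 0. *FABP7* was -0.75 and *EVPL* -0.12 when wild-type 2 and wild-type 3, respectively, were left out, and without hypomelanistic 1 *ERBB3* was 0.11 and *CDH1* 0.12.

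Most tested fibroblast and cartilage markers had negative values, which 49.0% of all tested genes had. Of 11 fibroblast markers, 10 had a negative log2 fold change (median -0.21), with *DPT* at -0.35 ± 0.114, *POSTN* at -0.48 ± 0.198, *LUM* at -0.27 ± 0.140 and *PDGFRA* at -0.19 ± 0.102. Their sum was 102402 to 123463 CPM in hypomelanistic and 116719 to 119510 CPM in wild-type embryos. Of 10 tested cartilage markers, 9 were negative (median -0.39), with *COL9A1* at -2.86 ± 1.201, *COL9A3* at -2.27 ± 0.960, *HAPLN1* at -0.55 ± 0.239 and *COL9A2* at -0.40 ± 0.201. Their sum was 685 to 791 against 750 to 925 CPM, most of it *COL11A1* at a mean of 622 and 670 CPM. *MATN1* had 0 to 5 counts. In each list 0 genes passed with edgeR or DESeq2, and 2 had an unadjusted p under 0.05, beside 5.63% of all tested genes. Much of the cartilage values rested on wild-type 2: without it *COL9A1*, *COL9A3* and *HAPLN1* were -0.11, -0.42 and -0.25 on the log2 scale, and 8 of 10 markers were negative with a median of -0.16. Without wild-type 2, *POSTN* was -0.30 and *PDGFRA* -0.11, and the fibroblast median was -0.11, with 10 of 11 negative. That median was -0.35 without hypomelanistic 2 and -0.12 without hypomelanistic 3, and *LUM* was -0.41 without hypomelanistic 2 and -0.18 without hypomelanistic 1. *SOX9*, which drives cartilage genes, had a positive log2 fold change, the opposite sign to 9 of the 10 cartilage markers. *ZEB2*, also made by fibroblasts, had the sign of 10 of the 11 fibroblast markers. *SNAI2*, which also acts in fibroblasts, had the opposite sign to those 10 (log2 fold change 0.14 ± 0.105). The part of these cells in the values of *ZEB2*, *SNAI2* and *SOX9* was not tested.

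Muscle markers varied between embryos of both genotypes, with sums of 616 to 2416 CPM in hypomelanistic and 760 to 2705 CPM in wild-type embryos and *LBX1* at 0 in all libraries. Of 9 tested, 4 were positive, 5 negative and 0 passed, with *PAX7* at -0.34 ± 0.349, *MET* at -0.08 ± 0.118, *MYOD1* at 0.41 ± 0.688 and *TTN* at -0.27 ± 0.537. These values depended on single libraries, with *PAX7* at -0.03 without hypomelanistic 3, *MET* at -0.01 without hypomelanistic 1, and *MYOD1* and *TTN* changing sign. Leukocyte markers summed to 121 to 126 and 103 to 129 CPM, most of it *CD74* at a mean of 87.8 and 79.2 CPM. Of 9 tested, 5 were positive, 4 negative and 0 passed, with *C1QC* at -0.30 ± 0.158, *CSF1R* at -0.54 ± 0.287, *CD79B* at 0.66 ± 0.408 and *CIITA* at 0.34 ± 0.237. Without wild-type 1, *CD79B* was 0.30 and *C1QC* -0.46, *CIITA* was 0.16 without wild-type 2, and *CSF1R* was -0.36 without hypomelanistic 3. Neuronal markers summed to 13.7 to 19.0 and 14.9 to 25.4 CPM, and of 5 tested, 3 were positive, 2 negative and 0 passed. The untested *NEFL*, *NEFM* and *STMN2*, with 0 to 93, 2 to 86 and 3 to 60 counts, had their highest CPM in wild-type embryos. *PRPH* differed by -0.51 ± 0.177, *TUBB3* by 0.48 ± 0.250 and *ISL1* by 0.53 ± 0.331, the last 2 by 0.19 and 0.33 without hypomelanistic 1. Without wild-type 2, *PRPH* was -0.37 and the median of the tested neuronal markers 0.285, against 0.08 with all libraries. Of these 3 lists, DESeq2 called 0 genes, and only *PRPH* had an unadjusted p under 0.05.

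**Figure D5:**
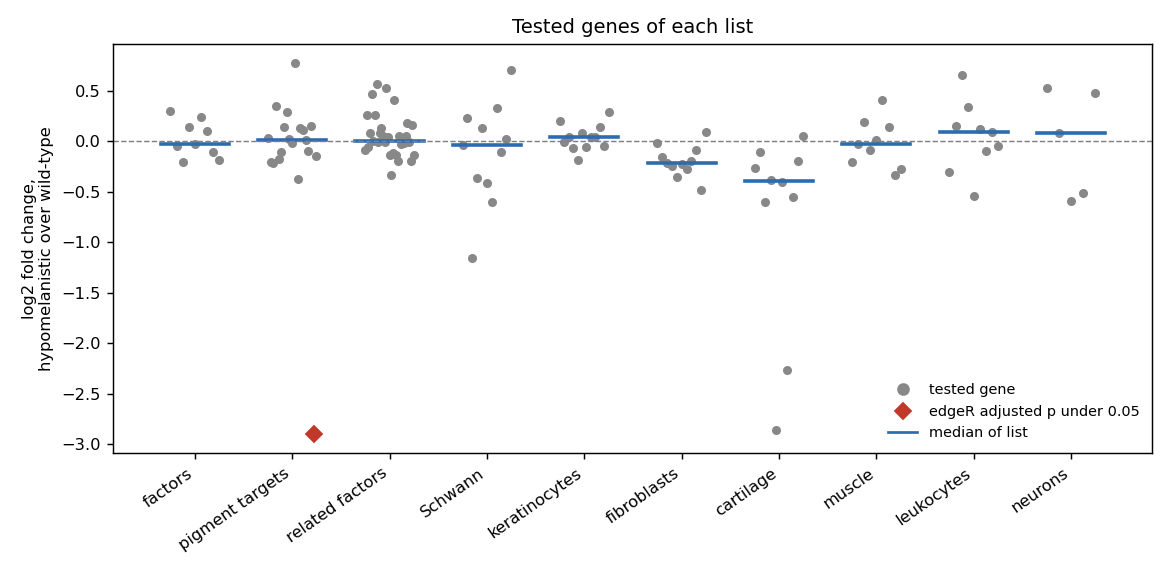
Log2 fold change, hypomelanistic over wild-type, of the 9 tested factors and of every tested gene of the 9 lists, with the median of each as a blue line and genes past the edgeR threshold as red diamonds. The only red diamond is *TYR* at -2.90, the 9 tested factors lie between -0.20 and 0.30, and the medians of the fibroblast and cartilage lists are -0.21 and -0.39.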

How the data were processed

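Per the labels and the study's methods, polyadenylated RNA was sequenced with a stranded kit, aligned with STAR 2.7.10b to the CU assembly, and counted with featureCounts (Subread 2.0.6) from uniquely mapped pairs. Whether strand was used in counting was not given in the sources used here. The deposited table holds raw counts, with coordinates in the CU assembly. Of its 25735 lines, 4 were broken (*DST*, *MACF1*) and were left out. Gene length was the annotated exon union.

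Genes were kept by filterByExpr and tested with the edgeR 4.0.16 quasi-likelihood test (R 4.3.3, TMM, no covariate, Benjamini-Hochberg over 17025 genes at 0.05). The biological coefficient of variation was 0.17. DESeq2 1.42.0 and limma 3.58.1 were alternatives, among 14 in all, of which 13 were planned and 1, library totals without TMM, was added after seeing the data. Single values were compared with exact permutation tests, and log2 CPM used a prior count of 2. Every pair of libraries differed beyond sampling noise (chi-square over its degrees of freedom 21.9 to 71.8), so none was counted as a duplicate. *IRF4* was left out of the correlations, which leaves 36 of the pairs of factors.

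Named were all 10 factors, list genes past the threshold and up to 4 list genes by smallest p, and the 3 genes most like *MITF* and *SOX10*. Of these, 2 list genes are not reported here. Other genes named, such as *PMEL*, *TYRP1* and *DCT*, members of the gene families, skin markers and markers near 0 were chosen after their values were seen. The members and lists were chosen with earlier results of these data known.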

Additional observations from a re-analysis of the deposited data

How the results depend on the processing

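Of the 9 tested factors, 0 passed in any of the 14 alternatives, and *TYR* stayed the 1 listed gene past the threshold in all of them. The count over all genes was 4 with edgeR, 84 with DESeq2, and 2 to 10 when single libraries were left out, with 10 without hypomelanistic 1 and 2 without wild-type 2 or wild-type 3. With the replicate number as a block it was 1. Deviations from the group mean had an r of -0.08, 0.11 and -0.01 in samples sharing a number. In samples with different numbers r was -0.12 to 0.10. With deviations taken within groups of 3, this check cannot exclude that the numbers pair the embryos. The log2 fold change of *MITF* ranged from -0.14 to 0.11 when single libraries were left out, and turned positive without hypomelanistic 3 (0.01) and without wild-type 1 (0.11). Under the same settings *MYOD1* ranged from -0.069 to 0.79 (negative without wild-type 3) and *TTN* from -0.70 to 0.26. *TTN* was 0.26 with the first principal component as covariate, 0.08 without hypomelanistic 1 and 0.26 without wild-type 2. The cause of these changes was not tested. The other factors kept their sign in every alternative. *SOX10* was 29.8 TPM with ribosomal RNA genes left out, and other settings changed no order of levels except CPM in place of TPM. Library totals shifted the median log2 ratio of all tested genes to -0.06, against 0.00 with TMM. Depth limits *IRF4* (0 to 8 counts) and, less so, *PAX3* (120 to 180 counts), and 3 embryos per genotype limit the tests of the other factors.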
